A study of Mus musculus with 15 samples.

Results

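The cell surface receptors that read immune complexes, and the adaptor proteins that carry their signal, were followed in arthritic mouse tarsal joints through 9 genes: the activating IgG receptors Fcgr1, Fcgr3 and Fcgr4, the inhibitory IgG receptor Fcgr2b, the adaptors Fcer1g and Tyrobp, the myeloid receptors Trem1 and Trem2, and the kinase Syk. They were picked by symbol from the array annotation, with earlier results of these data known, and are 9 of the 19938 genes measured. Each is read by 1 probe set that names no other gene. Whole tarsal joints of male DBA/1JBom mice, freed of skin and visible muscle, gave 1 Affymetrix Mouse Gene 1.0 ST array per joint. To induce arthritis, 100 µl of type II collagen from chicken (2 mg/ml) was injected into the skin on day 1 in complete Freund's adjuvant (0.5 mg/ml), and the collagen was given again on day 21 in incomplete Freund's adjuvant. Joints at clinical score 3 were taken at day 0 to 3 of symptoms (animals 16, 18 and 57). Animals 33, 43 and 52 were taken at week 1 to 2, and animals 54, 29 and 60 at week 3 to 4. The decline group (15, 21 and 10) had held score 3 for more than 2 weeks per the labels, and at least 3 weeks per the series text, and was then falling in score. Controls 1 to 3 were not induced per the labels, whereas the methods describe adjuvant without collagen in one place and non-immunised mice in another. The labels mark the array of animal 57 as a quality control failure, which leaves 14 arrays for the comparisons. No age is stated for the mice.

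Receptors for the Fc part of IgG let myeloid cells recognise antibody bound to antigen, which in this model includes antibody to type II collagen. In mice the activating receptors need the Fc receptor gamma chain, encoded by Fcer1g, both to reach the cell surface and to signal. The gamma chain and DAP12, encoded by Tyrobp, carry an immunoreceptor tyrosine-based activation motif (ITAM) that recruits the kinase Syk once phosphorylated, whereas Fcgr2b carries an inhibitory motif (ITIM) of its own. TREM1, found mainly on neutrophils and monocytes, and TREM2, found on macrophages and osteoclasts, signal through DAP12.

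The stretches before the transcription starts are shown because 8 of the members moved together in the joints, while Trem2, which lies close to Trem1 in the genome, did not. RefSeq (GRCm38.p6, a C57BL/6J reference and not DBA/1) had an entry for 8 of the 9 genes, all but Tyrobp. Each line below gives the 250 bases before the start of 1 gene, read 5′ to 3′ on the strand of the gene, and capitals mark GAGGAA or its reverse complement, the core bound by the myeloid factor PU.1. The windows are chr3:96293970-96294219 on the minus strand for Fcgr1, chr1:171059404-171059653 (minus) for the first of 2 entries of Fcgr3, chr1:171018676-171018925 (plus) for Fcgr4, chr1:170976072-170976321 (minus) for Fcgr2b, chr1:171234350-171234599 (minus) for Fcer1g, chr17:48232489-48232738 (plus) for Trem1 and chr17:48346151-48346400 (plus) for Trem2.
Fcgr1: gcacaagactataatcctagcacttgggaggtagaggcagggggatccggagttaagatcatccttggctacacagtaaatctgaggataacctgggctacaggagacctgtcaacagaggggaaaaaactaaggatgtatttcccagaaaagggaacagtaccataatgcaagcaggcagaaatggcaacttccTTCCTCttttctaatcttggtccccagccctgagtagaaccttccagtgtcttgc
Fcgr3: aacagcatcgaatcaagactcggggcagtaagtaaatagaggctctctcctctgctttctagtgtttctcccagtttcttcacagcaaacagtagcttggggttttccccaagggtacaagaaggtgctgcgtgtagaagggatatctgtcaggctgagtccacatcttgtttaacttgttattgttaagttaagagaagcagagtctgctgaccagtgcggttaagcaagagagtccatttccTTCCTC
Fcgr4: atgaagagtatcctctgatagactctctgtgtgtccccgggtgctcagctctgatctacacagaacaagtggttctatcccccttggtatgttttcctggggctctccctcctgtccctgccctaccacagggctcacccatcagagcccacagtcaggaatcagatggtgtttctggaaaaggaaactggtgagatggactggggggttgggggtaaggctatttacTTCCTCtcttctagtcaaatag
Fcgr2b: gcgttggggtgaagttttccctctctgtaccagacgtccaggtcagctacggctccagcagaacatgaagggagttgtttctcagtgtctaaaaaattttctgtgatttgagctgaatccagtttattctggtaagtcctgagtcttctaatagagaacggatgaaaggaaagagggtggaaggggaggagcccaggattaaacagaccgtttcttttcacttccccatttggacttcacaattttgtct
Fcer1g: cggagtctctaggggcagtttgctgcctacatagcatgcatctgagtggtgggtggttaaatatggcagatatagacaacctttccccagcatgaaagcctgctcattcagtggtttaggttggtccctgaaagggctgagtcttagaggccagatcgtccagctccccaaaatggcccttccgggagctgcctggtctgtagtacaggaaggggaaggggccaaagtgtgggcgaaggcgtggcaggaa
Trem1: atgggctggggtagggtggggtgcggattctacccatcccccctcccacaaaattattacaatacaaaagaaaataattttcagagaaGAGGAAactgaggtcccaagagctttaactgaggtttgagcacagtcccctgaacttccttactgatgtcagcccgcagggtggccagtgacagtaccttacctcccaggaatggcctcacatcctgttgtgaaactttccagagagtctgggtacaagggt
Trem2: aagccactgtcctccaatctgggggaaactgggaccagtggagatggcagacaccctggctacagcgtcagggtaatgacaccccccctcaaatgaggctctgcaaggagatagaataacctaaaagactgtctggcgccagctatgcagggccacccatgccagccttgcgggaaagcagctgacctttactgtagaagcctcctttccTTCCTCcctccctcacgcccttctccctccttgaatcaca
The PU.1 core began at position -55 in Fcgr1, -6 in Fcgr3, -22 in Fcgr4, -162 in Trem1 and -40 in Trem2, where -1 is the last base before the start, and it was absent from the windows of Fcgr2b and Fcer1g. Of the 8 members with an entry, 6 held it on either strand (Syk in 1 of its 2 entries), against 23.3% of 32851 promoter windows of this length. TTGCNNAA, a C/EBP site, was present on either strand in 1 of the 8, Fcgr3, and in 9.56% of all windows. These matches are descriptions of letters in a window, and the all-window shares are not matched for base composition.

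The deposited values are log2 signals, and levels are compared here only within a gene, never between genes. The SD of an array over its genes was narrowest on control 2 (1.22) and decline 10 (1.28) and ran from 1.41 to 1.65 on the other 12 arrays, and on animal 57 it was 1.08. Skeletal muscle and epidermis markers differed widely between joints: the mean over 8 muscle genes was 8.80 to 9.01 at day 0 to 3 and 10.90 to 11.71 in controls, and that over 7 epidermal genes was 5.65 to 6.49 in week 0 to 2 but 10.22 to 11.08 in decline. The epidermal mean of the 3 controls was 6.17, 6.51 and 10.04 from lowest to highest, and in week 3 to 4 it ran from 7.02 to 10.68. In these whole joints, fewer cells of a type and less RNA per cell cannot be told apart. Nothing in the labels ties a joint to a cage or litter.

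All members but Trem2 were higher at day 0 to 3 than in controls, and the size of the difference became smaller in each later phase for most of them. In limma's fit over all 19938 genes, at an adjusted p under 0.05 (Benjamini-Hochberg), 8 of the 9 members rose and 0 fell at day 0 to 3, where 7.82% of all genes were called and 4.46% were called higher. The median log2 change of the members was 1.25, against -0.12 over all genes. By week 1 to 2, 3 members rose (Fcgr1, Fcer1g and Tyrobp) and 0 fell, against 10.1% of all genes called and 5.41% called higher, with medians of 0.72 and -0.13. By week 3 to 4, 0 members passed (1.55% of all genes did), 5 had an unadjusted p under 0.05 (23.9% of all genes), and the medians were 0.59 and -0.09. In decline 0 members and 0.00% of all genes passed, 2 members had an unadjusted p under 0.05 (12.0% of all genes), Fcgr1 higher and Trem2 lower than controls, and the medians were 0.23 and -0.05. All 4 comparisons share the same 3 control arrays.

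The counts depended on single joints, and so did those over all genes. At day 0 to 3 the count of called members fell from 8 to 1, Fcgr1, without animal 16 or without animal 18, either of which leaves 1 array in that phase and the spread to the other groups, and to 4 without control 2 or control 3. Over all genes the called number fell from 1559 to 139 without animal 16, 209 without animal 18, 972 without control 2 and 1046 without control 3. For week 1 to 2 the count of members was 0 without animal 43 or 52, 1 (Fcgr1) without control 2, and 4 without animal 33. All genes called there fell from 2005 to 417 without animal 43, 519 without animal 52, 1071 without control 2 and 1220 without animal 33. For week 3 to 4 the members called were 3 without decline 10 (Fcgr1, Fcer1g and Tyrobp), through the spread alone, and 1 without decline 21 (Fcgr1) or without control 1 (Fcgr2b), while all genes called went from 309 to 1427, 472 and 1416 in these fits. With both narrow arrays, control 2 and decline 10, left out together, the counts were 7, 3, 2 and 0 in the order of the phases.

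**Figure D1:**
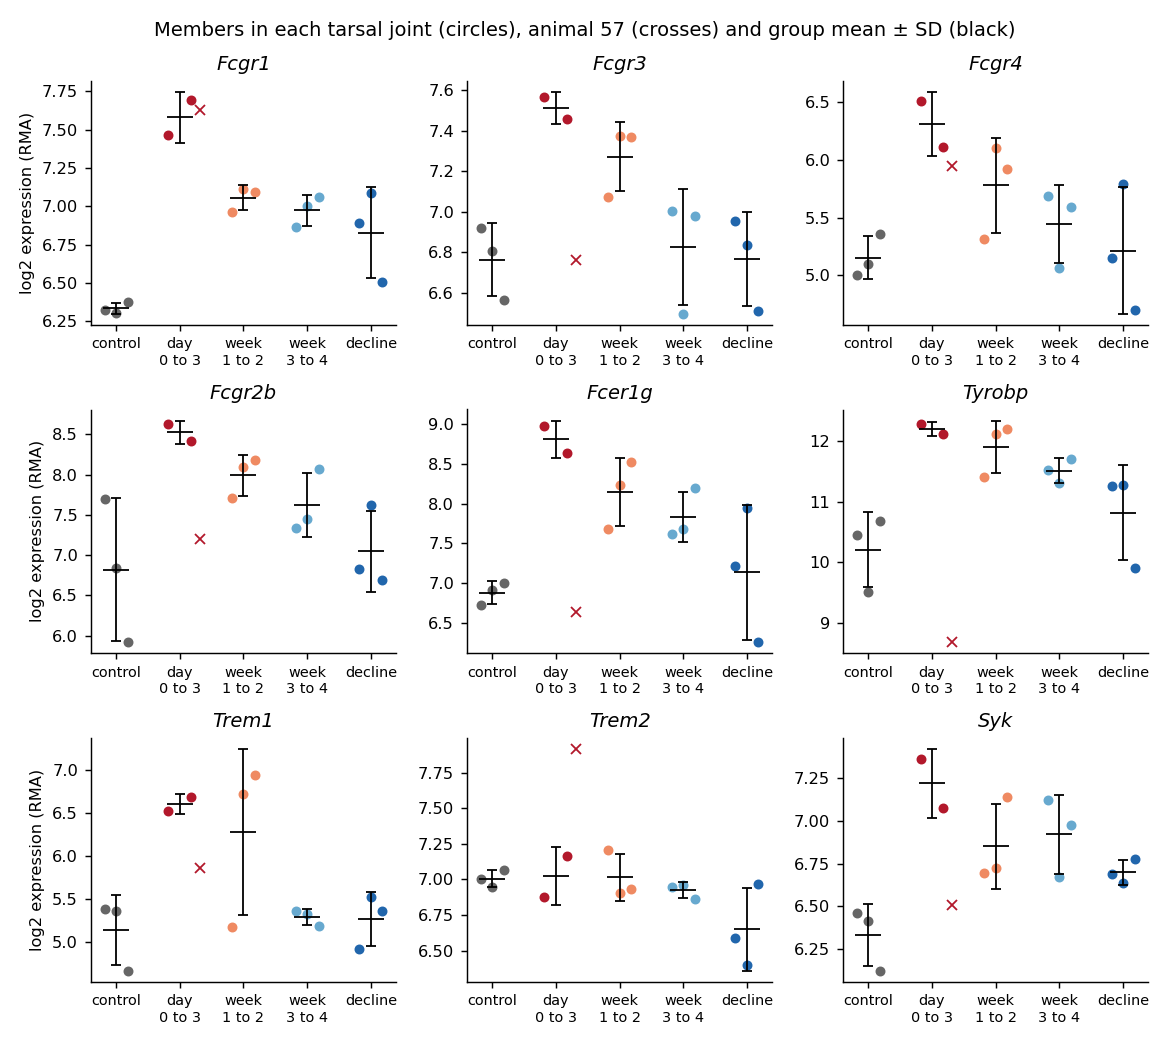
RMA log2 expression of the 9 members (y axis) for every joint, arranged by disease phase (x axis). Circles show the 14 arrays compared, crosses show animal 57, and black marks with bars are the group mean ± SD without animal 57 (n = 2 at day 0 to 3 and 3 elsewhere). For 8 genes both circles of day 0 to 3 lie above all controls, and for Trem2 they do not.

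Fcgr1, the high-affinity IgG receptor, had log2 values of 6.32, 6.30 and 6.37 in controls 1 to 3 and 7.46 and 7.70 in animals 16 and 18. Animals 33, 43 and 52 were at 6.96, 7.11 and 7.10, animals 54, 29 and 60 at 6.86, 7.00 and 7.06, and the decline animals 15, 21 and 10 at 6.89, 7.09 and 6.50. Every one of the 11 arthritic joints thus lay above every control, and both early joints lay above all later ones. The groups did not overlap with controls in any phase. At day 0 to 3 the gene was 2.37-fold higher (log2 1.25, standard error 0.18, adjusted p = 0.00176), and this was the one call of the 8 that held when each of the 14 arrays was left out in turn. It was 1.65-fold higher in week 1 to 2 (log2 0.72, standard error 0.16, adjusted p = 0.0147), a call lost without animal 43 or 52. In week 3 to 4 it stood 1.56-fold above controls (adjusted p = 0.0567) and in decline 1.41-fold (adjusted p = 0.262).

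Fcgr3, a low-affinity activating receptor found on most myeloid cells, was at 6.92, 6.80 and 6.57 in the controls and 7.57 and 7.46 at day 0 to 3. Animals 33, 43 and 52 had 7.07, 7.37 and 7.37. The joints of week 3 to 4 were at 7.00, 6.50 and 6.98, and those of decline at 6.96, 6.83 and 6.51. The first pair of groups stood clear of the controls, and the later pair overlapped them. The increase at day 0 to 3 was 1.68-fold (log2 0.75, standard error 0.20, adjusted p = 0.0388), the smallest of the 8, and was lost without animal 16, 18, 43 or 52, control 2 or control 3. Fcgr3 was 1.42-fold higher in week 1 to 2 (adjusted p = 0.0833), and its later log2 changes were 0.06 and 0.00.

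Fcgr4, the receptor for IgG2a and IgG2b on mouse monocytes, macrophages and neutrophils, had values of 5.00, 5.09 and 5.36 in controls against 6.51 and 6.12 at day 0 to 3. In week 1 to 2, animals 43 and 52 were at 6.10 and 5.92, while animal 33, at 5.32, lay within the controls. Week 3 to 4 had 5.69, 5.06 and 5.60, and decline 5.15, 5.79 and 4.70, both overlapping the controls. The gene was 2.23-fold higher at day 0 to 3 (log2 1.16, standard error 0.31, adjusted p = 0.0384), a call lost without animal 16, 18 or 52 or any 1 of the 3 controls. It was 1.54-fold higher in week 1 to 2, which did not pass (adjusted p = 0.151).

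Fcgr2b, the inhibitory receptor of B cells and myeloid cells, was the most variable member in controls, at 7.70, 6.84 and 5.92 (SD 0.89, n = 3). The joints of day 0 to 3 were at 8.63 and 8.42, and those of week 1 to 2 at 7.70, 8.09 and 8.18. Week 3 to 4 had 7.33, 7.45 and 8.07, and decline 6.83, 7.63 and 6.69. Both phases of week 0 to 2 lay above all controls, animal 33 only just, since it and control 1 both round to 7.70. The increase was 3.27-fold at day 0 to 3 (log2 1.71, standard error 0.42, adjusted p = 0.0263) and was lost without animal 16, animal 18, control 2 or control 3. In week 1 to 2 the gene was 2.25-fold higher (adjusted p = 0.0600), and its log2 change ran from 0.72 without control 3 to 1.61 without control 1. The ligand-binding parts of Fcgr2b and Fcgr3 are close in sequence, and how far the probes tell these transcripts apart was not tested.

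The activating receptors were set against the inhibitory one within each joint, as the mean of Fcgr1, Fcgr3 and Fcgr4 minus Fcgr2b on the log2 scale, with the control mean at 0. The difference was -0.66 ± 0.08 (SD, n = 2) at day 0 to 3. It was -0.55 ± 0.08 in week 1 to 2, while week 3 to 4 had -0.47 ± 0.36 and decline -0.05 ± 0.28 (SD, n = 3 each). The controls themselves stood at -0.88, -0.03 and 0.91, so every arthritic joint lay inside their range. In the group means of day 0 to 3, Fcgr2b stood 1.71 above controls and the activating receptors 0.75 to 1.25, but no phase was separated from controls by the difference. Without control 1 the day 0 to 3 value was -1.10 and without control 3 it was -0.20. Taken singly at day 0 to 3, Fcgr1 minus Fcgr2b was -0.46, Fcgr3 minus Fcgr2b -0.96 and Fcgr4 minus Fcgr2b -0.55. For Fcgr3 both early joints, at -1.01 and -0.91, lay below the lowest control (-0.72), as did animals 52 (-0.75), 29 (-0.90), 60 (-1.04) and 21 (-0.74).

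**Figure D2:**
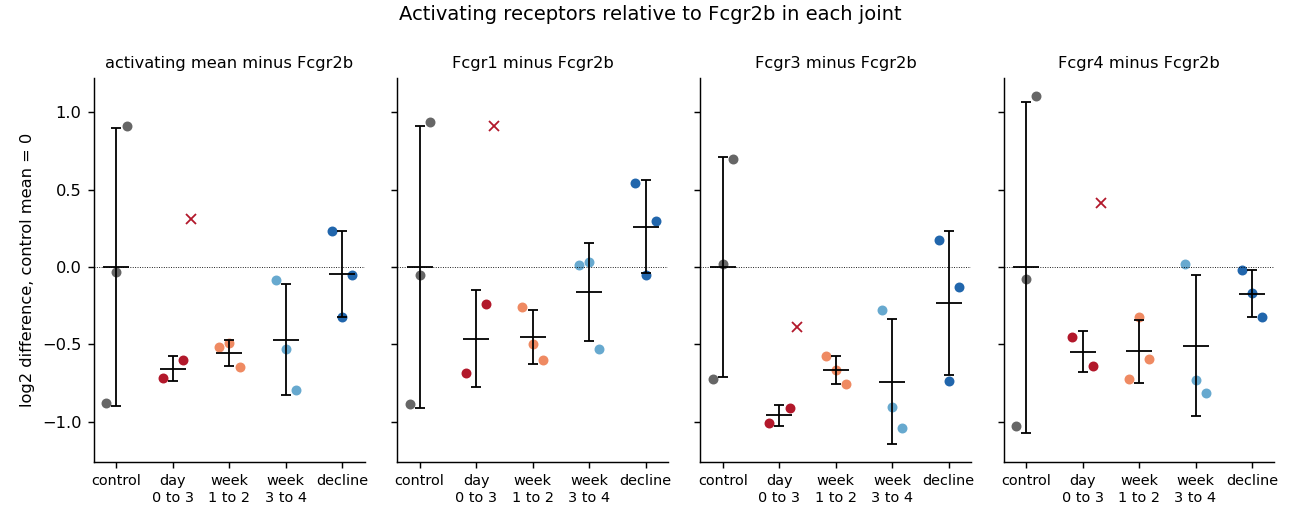
Log2 difference of the activating receptors (mean of 3, then each one) from Fcgr2b in each joint (y axis, control mean at 0) for the 5 groups (x axis). Circles show single arrays, crosses animal 57, and black marks with bars group mean ± SD. The controls span -0.88 to 0.91 in the first panel and enclose every arthritic joint.

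On the deposited values the 2 ITAM adaptors had the largest increases of the 9 members at day 0 to 3 and in week 1 to 2. This order was not kept after a second quantile normalisation. At day 0 to 3 the log2 change of Fcer1g was then 1.78, and that of Tyrobp, 1.53, was below Trem1 (1.67) and Fcgr2b (1.59). In week 1 to 2, Trem1 (1.32) was above Tyrobp (1.21) and Fcer1g (1.14). Fcer1g was at 6.73, 6.91 and 7.00 in controls and 8.98 and 8.64 at day 0 to 3, followed by 7.68, 8.24 and 8.52 in week 1 to 2. In week 3 to 4 it was at 7.62, 7.68 and 8.19, still above all controls, and in decline at 7.21, 7.95 and 6.26. Decline 15 and 21 lay above the controls, and decline 10 lay below them. Fcer1g rose 3.81-fold at day 0 to 3 (log2 1.93, standard error 0.38, adjusted p = 0.0103) and 2.40-fold in week 1 to 2 (log2 1.27, standard error 0.34, adjusted p = 0.0346). The first call was lost without animal 16 or 18, and the second without animal 43 or 52 or any 1 of the 3 controls. In week 3 to 4 it stood 1.93-fold above controls (adjusted p = 0.135).

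Tyrobp was at 10.45, 9.51 and 10.68 in controls 1 to 3, with control 2 the lowest. The early joints were at 12.27 and 12.11 (day 0 to 3) and 11.40, 12.11 and 12.19 (week 1 to 2). Animals 54, 29 and 60 followed at 11.52, 11.31 and 11.71, and decline at 11.26, 11.28 and 9.92. For Tyrobp all joints up to week 4 lay above all controls, and decline 10 lay among them. The increase was 3.94-fold at day 0 to 3 (log2 1.98, standard error 0.41, adjusted p = 0.0130) and 3.22-fold in week 1 to 2 (log2 1.69, standard error 0.37, adjusted p = 0.0145). The first was lost without animal 16 or 18, and the second without animal 43 or 52 or control 2. In week 3 to 4 the gene was 2.46-fold above controls (adjusted p = 0.0783). Of the members, Tyrobp followed the SD of the array over its genes most closely (r = 0.90 across the 14 arrays), and a second quantile normalisation brought its log2 change at day 0 to 3 from 1.98 to 1.53 and that in week 1 to 2 from 1.69 to 1.21, with both calls kept (adjusted p = 0.0054 and 0.0103). The part of the signal range in these changes was not tested.

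Trem1, which amplifies inflammatory signalling, was high in 4 joints only. It was at 5.39, 5.36 and 4.67 in controls and at 6.52 and 6.68 at day 0 to 3. In week 1 to 2, animals 43 and 52 were at 6.72 and 6.94 but animal 33 was at 5.17, within the controls. All later joints were low, at 5.37, 5.33 and 5.18 in week 3 to 4 and 4.92, 5.53 and 5.36 in decline. The gene was 2.76-fold higher at day 0 to 3 (log2 1.46, standard error 0.41, adjusted p = 0.0431), a call lost in 8 of the 14 fits that left out 1 array (animals 16, 18, 43, 54, 29 and 60, and controls 2 and 3). In week 1 to 2 it was 2.20-fold higher (log2 1.14, adjusted p = 0.0614), and its log2 change ran from 0.81 without animal 52 to 1.69 without animal 33, the one of the 14 such fits in which it was called (adjusted p = 0.0041). Against week 1 to 2 it was 1.98-fold lower in week 3 to 4, with an unadjusted p of 0.0174 that did not pass the adjustment (adjusted p = 0.815).

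Trem2 did not follow the others. It was at 7.00, 6.95 and 7.07 in controls, 6.88 and 7.17 at day 0 to 3, and 7.20, 6.90 and 6.93 in animals 33, 43 and 52. Week 3 to 4 had 6.95, 6.96 and 6.86, and decline 6.59, 6.40 and 6.97. All groups overlapped the controls. In the order of the phases its log2 change was 0.02, 0.01, -0.08 and -0.35 (standard error 0.18 at first and 0.16 later), at adjusted p = 0.959, 0.975, 0.756 and 0.409. Over the 14 arrays its correlation with the other 8 members ran from -0.08 to 0.11.

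Syk, the kinase that docks on phosphorylated ITAMs, was at 6.46, 6.41 and 6.12 in controls, 7.36 and 7.08 at day 0 to 3, and 6.69, 6.72 and 7.14 in animals 33, 43 and 52. Animals 54, 29 and 60 were at 7.12, 6.67 and 6.98, and the decline joints at 6.69, 6.63 and 6.78. As for Fcgr1, all 11 arthritic joints lay above all 3 controls. The increase was 1.85-fold at day 0 to 3 (log2 0.89, standard error 0.19, adjusted p = 0.0164), lost without animal 16 or 18. Later it was 1.43-fold (adjusted p = 0.0691), 1.51-fold (adjusted p = 0.0852) and 1.29-fold (adjusted p = 0.420) above controls, none of which passed.

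**Figure D3:**
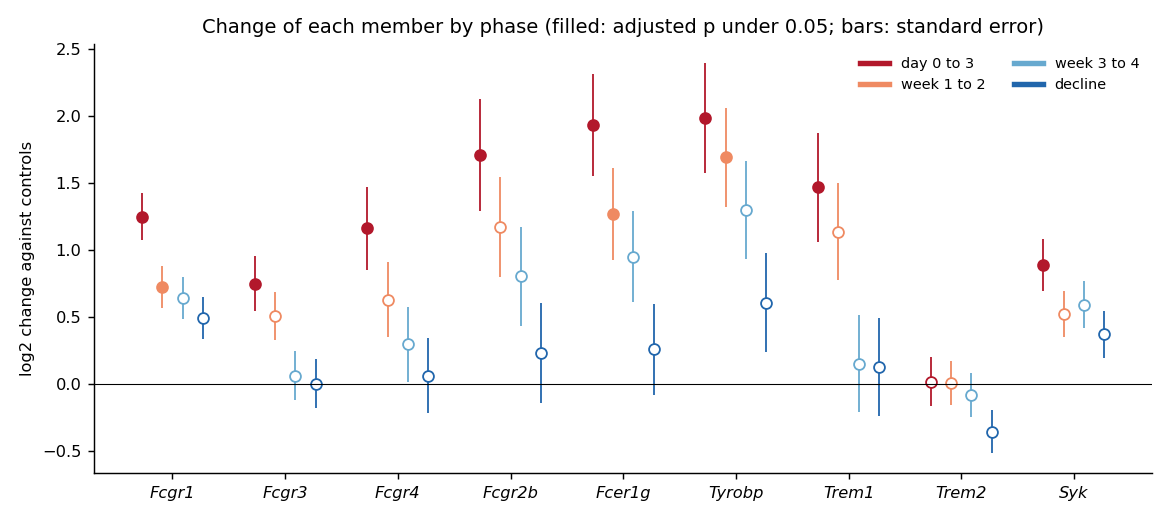
Log2 change of each member against the 3 controls (y axis) for the 4 phases (colours), with the standard error as bars. Filled circles passed an adjusted p under 0.05 in limma's fit, which 8 members did at day 0 to 3 and 3 in week 1 to 2.

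Group means were highest at day 0 to 3, became lower with each later phase and were lowest in controls for 7 of the 9 members. The exceptions were Syk, whose mean was higher in week 3 to 4 than in week 1 to 2 (6.92 and 6.85), and Trem2. Neighbours in this order were not separated by the test: 0 members passed between any 2 neighbouring phases, where 0.00502%, 0.00502% and 0.00% of all genes passed in turn, and the lowest adjusted p of a member was 0.787. From day 0 to 3 to week 1 to 2 the groups did not overlap for 5 members, all lower later (Fcgr1, Fcgr3, Fcgr4, Fcgr2b and Fcer1g), against 11.2% of all genes lower without overlap. At an unadjusted p under 0.05 there was 1 member at that step (Fcgr1, 1.79% of all genes), 2 at the next (Fcgr3 and Trem1, 4.98%) and 0 at the last (6.13%). Groups that did not overlap with controls numbered 8 of 9 members at day 0 to 3 (18.4% of all genes higher without overlap) and 6 in week 1 to 2 (13.6%). Later there were 4 (10.5%, week 3 to 4) and 2 (3.80%, decline). Those of week 3 to 4 were Fcgr1, Fcer1g, Tyrobp and Syk, and those of decline Fcgr1 and Syk.

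Decline was also compared with the 5 joints of week 0 to 2 directly, a comparison that holds no control. All 9 members had lower means in decline, with a median log2 change of -0.78 against 0.04 over all genes. One member, Fcer1g, fell at the adjusted threshold (2.42-fold, log2 -1.27, standard error 0.31, adjusted p = 0.0330), where 4.60% of all genes were called and 2.06% were called lower. The decline joints were at 7.21, 7.95 and 6.26, against 7.68 to 8.98 in week 0 to 2, so that decline 21 and animal 33 overlapped. The call held in 8 of 14 fits that left out 1 array and was lost without animal 16, 18, 43 or 52 or decline 15 or 10. It was also lost with only the groups compared in the fit, where Fcgr2b was the one member called. The log2 change of Fcer1g was -0.83 without decline 10 and -1.68 without decline 21. Fcgr3 (1.52-fold lower, adjusted p = 0.0507), Tyrobp (2.29-fold, adjusted p = 0.0550), Trem1 (2.20-fold, adjusted p = 0.0642) and Fcgr2b (2.22-fold, adjusted p = 0.0670) were just outside the threshold. For Fcgr3, Fcgr2b and Tyrobp the groups did not overlap, against 7.34% of all genes lower without overlap. The epidermal markers that differ between these groups moved with this comparison: all 7 rose in decline, by a median log2 change of 4.90, and their part in the fall of the members was not tested. The letter code in the array names that the study lists, 1 code for all week 0 to 2 joints and another for all decline joints, differs in step with this comparison. With the code as a term, set by week 3 to 4 alone, the log2 change of Fcer1g was -1.59 (standard error 0.66, adjusted p = 0.743). The controls have no such code, so no comparison against controls could take it as a term.

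Across the 14 arrays the 8 members other than Trem2 rose and fell together, with pairwise correlations from 0.63 to 0.92 and a median of 0.75 over 28 pairs. These points share arrays, groups and signal range, so the values are a description. The genes most correlated with the mean of the 9 members over the 14 arrays were the scavenger receptor gene Msr1 (r = 0.98), the interleukin 4 receptor gene Il4ra (0.97), the adaptor gene Fyb (0.97), the proton-sensing receptor gene Gpr65 (0.97) and Ms4a6d (0.96). At day 0 to 3 they were at log2 changes from 1.72 (Fyb) to 2.87 (Msr1). For Fcgr2b alone the nearest profiles were those of Ctps, Spon1 and Paics (r = 0.97, 0.95 and 0.95), of which Ctps and Paics encode enzymes of nucleotide synthesis. The 3 nearest to Trem1 were the chemokine gene Ccl20 (0.95), the cytokine gene Il1b (0.93) and Ebpl (0.92), and these were, like Trem1, up in the first phases and near the controls later. Il1b was 2.30 above controls on the log2 scale at day 0 to 3, then 1.94, 0.12 and 0.25. Trem2 had Pdzrn4 (0.91), Gdpgp1 (0.89) and Nemp2 (0.88) as its nearest profiles, each with a log2 change under 0.20 in size up to week 4 and from -0.42 to -0.56 in decline.

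Markers of leukocytes as a whole moved with the members. Of 8 pan-leukocyte genes, 4 rose and 0 fell at day 0 to 3 (median log2 change 1.06), 1 rose in week 1 to 2, and 2 fell in decline against week 0 to 2. Of all genes, 4.46% and 5.41% were called higher in the first 2 comparisons and 2.06% were called lower in the last. The mean over the pan-leukocyte genes was 7.75 to 8.41 in controls, 9.31 to 9.53 at day 0 to 3 and 8.50 to 9.31 in week 1 to 2. The joints of week 3 to 4 had 8.44 to 9.02 and decline 7.66 to 8.63. Ptprc, the common leukocyte antigen CD45, was 2.97-fold higher at day 0 to 3 (adjusted p = 0.0353), a change of the same order as those of the members, and its correlation with single members across the 14 arrays was 0.95 for Tyrobp, 0.89 for Fcer1g, 0.87 for Fcgr4, 0.83 for Fcgr3, 0.79 for Fcgr1, 0.77 for Fcgr2b, 0.72 for Trem1, 0.65 for Syk and 0.07 for Trem2. Of 10 macrophage markers, 3 rose and 0 fell at day 0 to 3 (Adgre1, Aif1 and Cd68), with a list mean of 8.45 to 8.78 against 7.26 to 8.09 in controls. In week 1 to 2, 1 macrophage marker rose and 1 fell, where 10.1% of all genes were called in either direction. The median log2 change of the list was 0.80. Of 12 neutrophil markers 1 rose, Csf3r, and their mean of 8.83 to 9.12 lay inside the 8.39 to 9.32 of controls. Osteoclast markers rose in 4 of 9 genes in each phase up to week 4. Over all 19938 genes, 890, 1079 and 191 were called higher in these phases in turn. Among mast cell, NK cell, T cell and B and plasma cell markers, 1 of 28 rose (Cd3g) and 2 fell (Ms4a2 and Vpreb1) at day 0 to 3. Of all genes 4.46% were called higher there and 7.82% in either direction, so the counts of these 28 are near the all-gene share. The mean of 8 B and plasma cell markers was 6.51 to 6.61 at day 0 to 3, below the 6.82 to 7.44 of controls, and that of 6 NK cell markers was 5.11 to 5.21, below 5.43 to 5.54. That of 6 T cell markers was 6.54 to 6.63, above 6.32 to 6.52, and the mast cell mean overlapped controls. Across the 14 arrays these 4 means had correlations of -0.76, -0.67, 0.51 and 0.50 in turn with the mean of the members. The NK cell mean was below 6 on every array, and the part of signal range in it was not tested. In decline against week 0 to 2 the median log2 change of the B and plasma cell markers was 0.44. There 1 of 8 was called higher and 5 had an unadjusted p under 0.05, against 507 and 3945 of all 19938 genes. The part of cell numbers in the changes of the members was not tested.

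Receptors coupled to ITAM signalling and their partners were split. The list holds mainly receptors that use the adaptors. It also has the adaptor DAP10 (Hcst), the IgE receptor chain Ms4a2 and the lectin receptor Clec10a. The lectin receptors Clec7a and Clec1b in it carry an ITAM-like motif of their own. Over all genes 4.46% and 5.41% were called higher at day 0 to 3 and in week 1 to 2. Of the 22 genes of the list measured (of 28), 5 rose and 1 fell at day 0 to 3, with a median log2 change of 0.16. In week 1 to 2, 4 rose and 1 fell. Those with the largest changes were lectin receptors that pair with the gamma chain: Clec4d at log2 2.96 and 2.56 in these phases, Clec4e at 2.40 and 1.92, and Clec4n (Dectin-2) at 1.92 and 1.84, followed by Cd300c2 at 1.42 and 0.78. The one that fell was Ms4a2, the beta chain of the mast cell IgE receptor (-0.71 and -0.82), named here for that reason after its value was seen. Fcer1a, the alpha chain of that receptor, went the other way (0.57 and 0.70) without passing in limma's fit (adjusted p = 0.151 and 0.0524). Both genes had means below 6 in every group. In decline against week 0 to 2, 5 of the 22 fell and 0 rose, where 2.06% of all genes were called lower. The 5 were Clec4d, Clec4e, Clec4n, Cd300c2 and Clec7a.

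Some inhibitory receptors and the phosphatases they recruit rose as well. The list counted here also holds genes that are neither, such as the ubiquitin ligase gene Cblb, the kinase gene Csk and the adaptor genes Dok1 and Dok2. Of all genes, 4.46% were called higher at day 0 to 3. Of the 30 in the list, 5 rose and 0 fell there, with a median log2 change of 0.52 against -0.12 over all genes. In week 1 to 2, 2 of the list rose (5.41% of all genes were called higher), and in decline against week 0 to 2, 4 fell (2.06% were called lower). Among the largest, Lilrb4a, an ITIM receptor of myeloid and mast cells, was 3.26-fold higher at day 0 to 3 (log2 1.70, adjusted p = 0.0444), Inpp5d, the lipid phosphatase SHIP1 that Fcgr2b recruits, was at a log2 change of 1.10 (adjusted p = 0.0111) and the lectin receptor gene Clec4a2 was 2.08-fold higher (adjusted p = 0.0151). Pilra was at a log2 change of 1.29 that did not pass (adjusted p = 0.0705). Of 31 genes of the signalling chain around and below Syk, 8 rose and 0 fell at day 0 to 3 (median 0.42) and 3 rose in week 1 to 2, Cbl, Fgr and Fyb. At day 0 to 3 the log2 change was 1.72 for the ADAP adaptor gene Fyb, 1.12 for the ubiquitin ligase gene Cbl, 1.07 for the Src family kinase gene Fgr and 1.06 for the SLP-76 adaptor gene Lcp2, at adjusted p from 0.00658 to 0.0436.

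Other immunoglobulin receptors were mixed: of 10 measured, 1 rose and 1 fell at day 0 to 3 and 1 rose and 2 fell in week 1 to 2, with medians of -0.38 and -0.42. In these phases 4.46% and 5.41% of all genes were called higher, and 7.82% and 10.1% were called in either direction. Trim21, an antibody receptor of the cytosol, rose 1.56-fold at day 0 to 3 (adjusted p = 0.0429), and Fcer2a, the low-affinity IgE receptor CD23 of B cells, fell 1.67-fold (adjusted p = 0.0359). Of 10 proposed ligands of TREM1 and TREM2, 3 rose and 0 fell at day 0 to 3: Hmgb1 (2.80-fold), Apoe (1.96-fold) and Hspd1 (1.82-fold). Among 11 regulators of myeloid receptor genes, Runx1 alone rose at day 0 to 3 (2.68-fold, adjusted p = 0.0155), while Spi1, which encodes PU.1, was at a log2 change of 0.44 (adjusted p = 0.207) and Fli1 at 1.01 (adjusted p = 0.121).

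**Figure D4:**
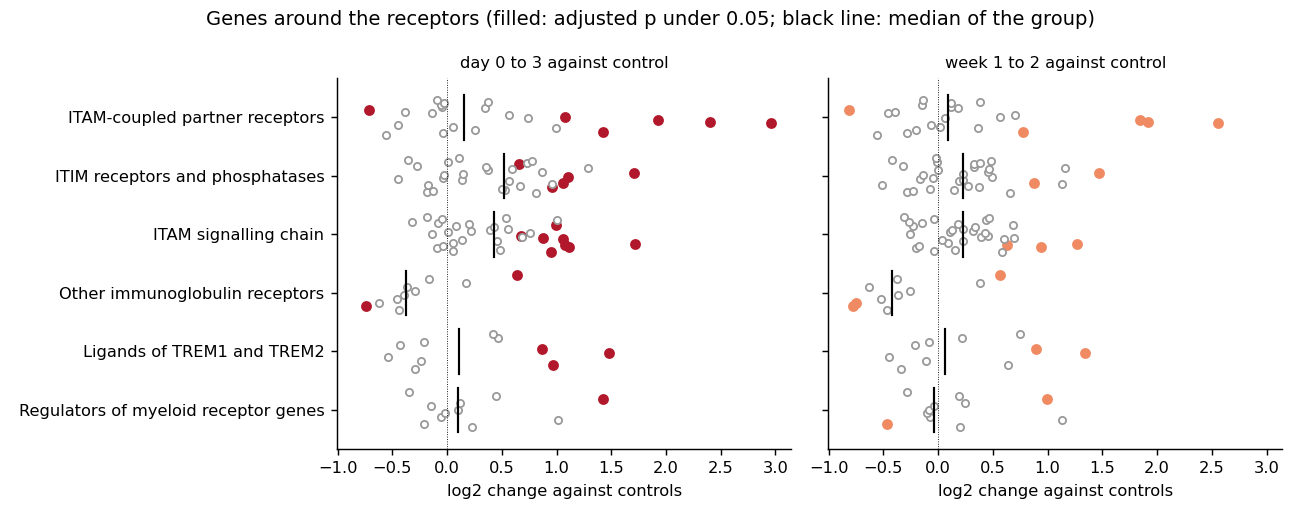
Log2 change against controls (x axis) of every measured gene of the 6 groups around the receptors (y axis), at day 0 to 3 (left) and in week 1 to 2 (right). Filled circles passed an adjusted p under 0.05, open circles did not, and the black line is the median of the group, highest at day 0 to 3 for the ITIM receptors and phosphatases (0.52).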

How the data were processed

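Total RNA of each joint (RNA integrity number of at least 8.4) was extracted with the mirVana kit, amplified with the NuGEN Pico system and hybridised to 1 array. The deposited values are log2 intensities of 35556 probe sets, which the authors made by RMA in R 2.15 (affy version: not given in the sources used here). Their spread still differed between arrays. No genome build is given for them. Probe sets naming 1 gene (21789) were kept, those naming several (1621) or none (12146) were left out, and where a gene had several the one with the highest mean signal was taken, giving 19938 genes. Comparisons used limma 3.58.1 (R 4.3.3, lmFit and eBayes) with 5 group means on 14 arrays and no covariate, with Benjamini-Hochberg adjustment over all genes. The p-values rest on a spread between joints that is pooled over all 5 groups and moderated over all genes. With 2 or 3 joints a group, precision is limited by that number. On data simulated for week 1 to 2 against control, over 19938 genes, 95 of 100 genes changed 4-fold and 57 of 100 changed 2-fold were recovered, with 11 false calls. The simulated noise was normal and independent between genes, without the differences in spread between these arrays. Recovery at day 0 to 3, with 2 joints, was not simulated, so these figures describe the fit under that noise only. The members, the 17 gene lists (205 of 219 genes measured), the motifs and the rule for named genes were chosen with earlier results of these data known. That rule allows all members, up to 4 genes of each list with the largest change and the genes most correlated with the members, as well as Ptprc. It was not followed throughout. Among cell markers, other immunoglobulin receptors and TREM ligands, only genes that passed the threshold at day 0 to 3 were named, and not for every list. Promoter windows came from RefSeq GRCm38.p6. For 1 further motif that was searched, the result is not reported here. Figures and tables were made with Python 3.11.15, pandas 2.3.3 and matplotlib 3.10.9.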

Additional observations from a re-analysis of the deposited data

Results flagged for a closer look

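The array of animal 57, taken at day 0 to 3 and excluded for quality, entered no comparison, yet 5 members lay above the highest control there: Fcgr1 at a log2 value of 7.63 (highest control 6.37), Fcgr4 at 5.95 (5.36), Trem1 at 5.86 (5.39), Trem2 at 7.92 (7.07) and Syk at 6.50 (6.46). Tyrobp (8.69) and Fcer1g (6.64) lay below the lowest control on the same array, so that the members did not move together there. The SD of this array over its genes was 1.08, and its mean correlation with the other joints of its phase was 0.779. Its median over all probe sets, 6.39, was the highest of all arrays, with controls 1 to 3 at 6.16, 6.30 and 6.15. How many of all genes lay above the highest control on this array was not counted, so the 5 members are a description only.

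Fcer1g was flagged because its difference from controls was smaller in decline than in week 0 to 2 by a test of the difference itself (log2 -1.27, adjusted p = 0.0330 in limma's fit).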

How the results depend on the processing

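No paired analysis was possible because the labels give each animal a number of its own and the groups share none. Among values of single members, 1787 kept their side of the threshold over the alternatives, 49 came to pass it and 72 no longer passed it. No called change turned its sign. These values pool all 8 comparisons, and most of them were not called in the main fit. The 72 were all losses among its calls, which numbered 8, 3 and 1 in the comparisons that had any. Of called members at day 0 to 3 (8), 1 remained with all 15 arrays, 5 with only the groups compared and 3 by an unmoderated analysis of variance, while all 8 stayed called under the centred, quantile and SD scalings. Of week 1 to 2 (3), 0 passed with all 15 arrays and 1 by the analysis of variance, and 6 passed with array weights, 5 after a second quantile normalisation and 5 with one median and SD for every array. In week 3 to 4 (0), 1 passed after a second quantile normalisation, 1 with a group mean of at least 6 and 2 without control 2 and decline 10, an alternative chosen after seeing the data. In decline against week 0 to 2 (1), the count was 0 with all 15 arrays, by analysis of variance, with the letter code as a term or without control 2 and decline 10, 2 with trend and robust moderation, centred arrays, one median and SD, or the mean of the probe sets, 3 after quantile normalisation or with a group mean of at least 6, and 8 with array weights. With only the groups compared it was 1, but Fcgr2b in place of Fcer1g. Counts over all genes moved too: in that comparison from 917 to 119 with all 15 arrays, 151 by analysis of variance, 0 with the letter code and 2727 with array weights, at day 0 to 3 from 1559 to 163 with all 15 arrays, 454 with only the groups compared and 862 by analysis of variance, and in week 1 to 2 from 2005 to 106 with all 15 arrays, 1250 by analysis of variance and 3014 with array weights. Quantile normalisation instead gave fewer calls over all genes (870 in decline against week 0 to 2 and 1707 in week 1 to 2) and more members. Leaving out single arrays gave 1 to 8, 0 to 4 and 0 to 3 called members in the first 3 phases, 0 to 0 in decline, 0 to 5 in decline against week 0 to 2 (5 without animal 33) and 0 to 0 between neighbouring phases. The activating minus inhibitory difference at day 0 to 3 was -0.33 with all 15 arrays, -0.49 after quantile normalisation and -0.53 with one median and SD, and in week 1 to 2 -0.38 and -0.43 under these scalings. Without single arrays it ran from -1.10 to -0.20, -0.99 to -0.10, -0.91 to -0.012 and -0.49 to 0.41 in the 4 phases. The cause of these shifts was not tested.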
